A study of Homo sapiens with 6 samples.

Results

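Metallothioneins and the genes that work with them in zinc handling were examined in A375 cells, a cultured melanoma line that carries an activating BRAF mutation, after 6 h with CuB or with the solvent DMSO. The series title gives CuB as cucurbitacin B, a plant triterpenoid. The genes were chosen by name: the metallothioneins MT1E, MT1F, MT1G, MT1M, MT1X and MT2A, the transcription factor MTF1 and the zinc exporter SLC30A1, 8 of the 58735 genes in the deposited table. Earlier results of these data were known when this choice was made. Polyadenylated RNA was sequenced from 3 libraries treated with CuB and 3 with DMSO. The dose is uncertain: the treatment protocol states 0.2 µM, whereas the names of the libraries state 100 nM. They do not say that replicates were separate cultures, so p-values measure the spread between these libraries, which may be technical.

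Metallothioneins are small cysteine-rich proteins that bind zinc, copper and cadmium and so buffer free metal in the cell. Their genes are clustered on chromosome 16 and are switched on by MTF1, a zinc finger factor that senses zinc and binds short promoter sequences called metal response elements. MTF1 also activates SLC30A1, which encodes ZnT1, the transporter that carries zinc out across the plasma membrane. In many cell types metallothionein RNA is known to rise with metals, oxidants and glucocorticoids.

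The promoter sequences that MTF1 is known to read were looked up first, for all members with a promoter sequence at hand. Of the 8 genes, 4 had a promoter in the RefSeq table for GRCh38.p14, each a window of 300 bases around the RefSeq start site. The letters TGCACNC and TGCGCNC, versions of the element's core, were searched on both strands, with overlapping matches counted. MT2A (chr16:56608334-56608633, plus strand) had 8 matches, MT1X (chr16:56682220-56682519, plus strand) had 4, SLC30A1 (chr1:211579112-211579411, minus strand) had 2 and MTF1 (chr1:37859543-37859842, minus strand) had 0. Among 27305 promoters of that length, 29.3% held at least 1 match, 8.59% at least 2, 0.593% at least 4 and 0.022% at least 8. Among the 9012 of them that belong to genes tested below, the shares were higher, at 39.5%, 12.6%, 0.777% and 0.0333%. The sites are given along the strand of the gene, 5′ to 3′, with the matching letters in capitals and with the distance of their first base from the RefSeq start site.
MT2A at -246: ccgcTGCACCCagcccctt
MT2A at -168: cgcggcccGTGTGCAgagccggg
MT2A at -153: gagccgggTGCGCCCggcccagt
MT2A at -139: cggcccagTGCGCGCggccgggt
MT2A at -88: cgcggggcGTGTGCAggcagcgc
MT2A at -54: ggggctttTGCACTCgtcccggc
MT2A at -8: tgccgcgcTGCACTCcaccacgc
MT2A at 31: gcgaacccGCGTGCAacctgtcc
MT1X at -150: ccccgcggTGCGCCCggcgctgg
MT1X at -122: cgggttgcTGCACCCggcccagg
MT1X at -78: gcaggggcGGGTGCAaggacgag
MT1X at -53: ggggcctcTGCGCCCggccctct
SLC30A1 at -49: ggggttccGAGTGCAaagcaaag
SLC30A1 at 25: accgggccGAGTGCAgctgccgt
A match is a description of these letters and not a measured binding site. The RefSeq start of MT2A lies 385 bases inside the gene as the deposited table bounds it, and that of SLC30A1 lies 419 bases outside it.

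The CuB libraries held 15502971 to 16137093 fragments assigned to genes, and the DMSO libraries 14845976 to 15797757. Replicates of a group differed beyond sampling noise. The chi-square per degree of freedom was 16.3 between CuB replicates 1 and 3 and 3.78 between replicates 2 and 3, and it was 24.3 between DMSO replicates 2 and 3 and 2.80 between replicates 1 and 3. SOX10, a lineage factor of melanocytic cells, was at 218 ± 31.1 FPKM (fragments scaled to gene length and library size) with CuB and 198 ± 50.4 FPKM with DMSO (SD, n = 3 per group here and below). Of the other melanocytic genes listed, MITF was at 4.42 ± 0.712 FPKM with CuB and 3.96 ± 0.467 FPKM with DMSO, MLANA was at most 1.29 FPKM in any library, and the pigment genes TYR, TYRP1, DCT and PMEL were at most 0.264 FPKM. S100B fell to 6.64 ± 0.161 FPKM with CuB, against 26.4 ± 1.61 FPKM with DMSO (log2 fold change -1.84, limma adjusted p = 1.27e-05). The list of dedifferentiated melanoma (AXL, NGFR, SOX9 and WNT5A) summed to 94.0 to 115 FPKM with CuB and 37.3 to 44.5 with DMSO, mostly AXL. AXL (log2 fold change 1.45) and NGFR (2.17) rose (limma adjusted p = 0.000150 and 0.000193). WNT5A went the other way without passing, at 6.68 ± 0.0968 FPKM with CuB and 7.98 ± 0.555 FPKM with DMSO (limma adjusted p = 0.0695). SOX9 was at most 0.502 FPKM in any library. Summed over their marker lists, fibroblast genes stood at 0.541 to 0.979 FPKM with CuB and 1.23 to 1.68 with DMSO, immune genes at 0.552 to 1.14 and 1.64 to 1.82, and endothelial genes at 0.200 to 0.372 and 0.479 to 0.548. Keratin genes of the keratinocyte list summed to 25.9 to 28.4 FPKM with CuB and 16.02 to 22.1 with DMSO, mostly KRT10. KRT1 was at 0 in all libraries and PTPRC, CD3E and CD68 were near it. The immune sum was mostly LYZ, at 0.794 ± 0.315 FPKM with CuB and 1.66 ± 0.0589 FPKM with DMSO. LYZ fell (log2 fold change -0.58, limma adjusted p = 0.0218), having entered the test only through its DMSO level, and the call held in 16 of 21 other settings. The part of these lists in the results was not tested.

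The comparison of CuB with DMSO asked whether the metallothionein system differed in mRNA level after 6 h. MT2A, MTF1 and SLC30A1 were the 3 members with a mean of at least 1 FPKM over the 6 libraries, and all 3 rose with CuB. MT1X lay below that level and was also higher with CuB in each library. MT1E, MT1G and MT1M had no fragment in any library, and MT1F had 1. Of the 13273 genes tested 38.6% changed and 22.9% rose, and the 3 rises are read against these shares. That reading is a description and not a test, because the members were chosen with earlier results known. In bulk RNA, fewer cells expressing a gene and less RNA per cell cannot be told apart.

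MT2A is the most widely expressed human metallothionein. Its level was 222, 180.2 and 205 FPKM in the CuB libraries, against 66.3, 75.9 and 65.5 FPKM in the DMSO libraries. Every CuB library stood above every DMSO library, as in 29.8% of tested genes. The lowest CuB value lay over the highest DMSO value by more than the range within DMSO. The means were 202 ± 20.9 FPKM with CuB and 69.2 ± 5.78 FPKM with DMSO, a 2.92-fold difference. The log2 fold change was 1.53 (SE 0.102, 95% interval 1.29 to 1.77; limma adjusted p = 7.48e-05), and 282 tested genes, 2.12%, had a larger one. In the order of all genes by mean level MT2A stood at place 125 with CuB and at place 461 with DMSO. In fragments it had 4081, 3482 and 3985 in the CuB libraries, against 1322, 1614 and 1328 in the DMSO libraries.

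SLC30A1, the ZnT1 exporter, had the largest change of the 3. Its level was 37.4, 32.7 and 31.4 FPKM in the CuB libraries, against 7.82, 7.45 and 8.55 FPKM in the DMSO libraries. The groups did not overlap, with CuB above, as in 29.8% of tested genes. The means were 33.8 ± 3.16 FPKM with CuB and 7.94 ± 0.561 FPKM with DMSO, a 4.26-fold difference. The log2 fold change was 1.96 (SE 0.0968, 95% interval 1.73 to 2.19; limma adjusted p = 2.16e-05), and 140 tested genes, 1.05%, had a larger one.

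MTF1, the zinc-sensing activator of both genes, was at 12.7, 13.1 and 12.1 FPKM in the CuB libraries, against 6.75, 5.88 and 6.14 FPKM in the DMSO libraries. Again all 3 CuB values were the higher ones, as they were in 29.8% of tested genes, while the groups stood apart in either direction in 51.5%. The means were 12.6 ± 0.511 FPKM with CuB and 6.26 ± 0.443 FPKM with DMSO, a 2.02-fold difference. The log2 fold change was 0.91 (SE 0.0838, 95% interval 0.71 to 1.11; limma adjusted p = 0.000314), and 782 tested genes, 5.89%, had a larger one. These fold changes are on the log2(FPKM + 1) scale, which lowers them, more so at lower levels. mRNA level does not show whether MTF1 protein was active, since zinc acts on the protein.

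MT1X, another metallothionein gene of the cluster, was at 1.11, 1.33 and 1.32 FPKM in the CuB libraries, against 0.551, 0.344 and 0.470 FPKM in the DMSO libraries. The groups did not overlap, at levels far under those of MT2A. All CuB values were above all DMSO values in 29.8% of tested genes, which do not include MT1X. In fragments it had 28, 35 and 35 with CuB, against 15, 10 and 13 with DMSO. Summed over libraries these 98 and 38 fragments gave a ratio of 2.77 (exact 95% interval 1.89 to 4.15, counting error only). With no filter on low values its log2 fold change was 0.63 (SE 0.12, limma adjusted p = 0.0213), where 8.02% of 32824 genes rose. At this low level the added 1 FPKM shrinks the fold change well below the 2.76-fold difference of the means.

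**Figure D1:**
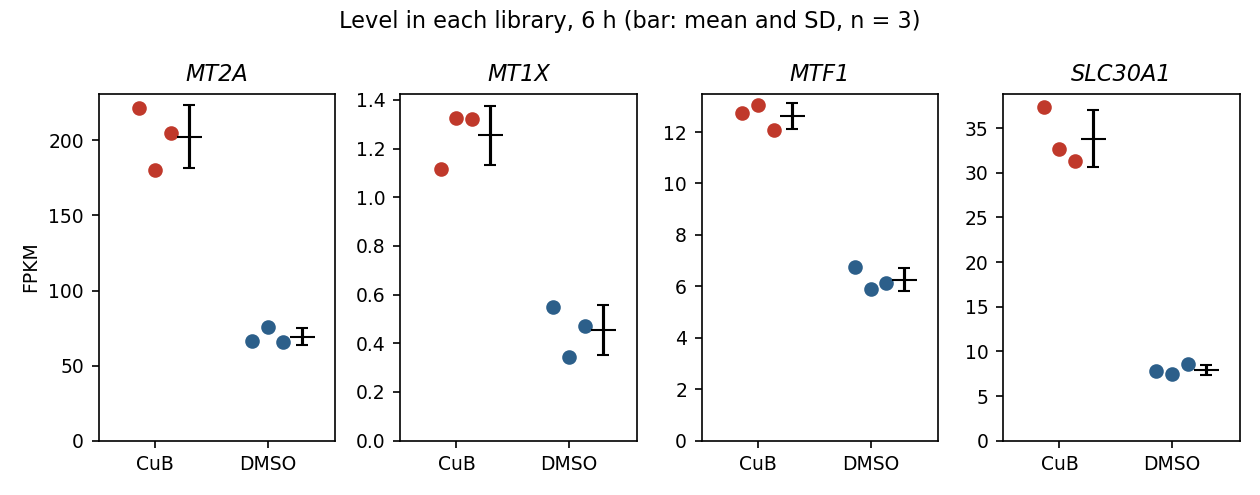
FPKM (vertical axis, linear from 0) of MT2A, MT1X, MTF1 and SLC30A1 in each of the 3 CuB and 3 DMSO libraries, as points, with the mean and SD of each group as a bar beside them. In each gene the 3 CuB points lie above the 3 DMSO points, and MT1X reaches only 1.33 FPKM where MT2A reaches 222.

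The remaining metallothioneins were listed at or near 0. MT1E, MT1G and MT1M had 0 fragments in all 6 libraries, where a count of 3 over the 6 would correspond to 0.0312, 0.0438 and 0.0349 FPKM. MT1F had 1 fragment, in CuB replicate 3, and none elsewhere, which is below that floor in both groups and gives no fold. The other genes and pseudogenes of the family gave the same picture. Of 17 metallothionein genes and pseudogenes examined, the 6 members among them, 13 had no fragment, MT1F and the pseudogene MT1L had 1 each, and MT2A and MT1X had more. The brain form MT3 and the epithelial form MT4 were among the 13. For comparison, 15.4% of the 19951 protein-coding genes of the table had no fragment in any library. The same held for 2 of 82 ribosomal protein genes, and 3 of the 82 were at 0 in at least 1 library.

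MT2A therefore made up nearly all of the summed level of the 6 metallothioneins. That sum was 223, 182 and 207 FPKM in the CuB libraries, against 66.9, 76.2 and 66.0 FPKM in the DMSO libraries. MT2A was 99.5%, 99.3% and 99.3% of it with CuB, and 99.2%, 99.5% and 99.3% with DMSO. The makeup of the sum was thus as alike between the groups as between replicates, while its size was not.

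MT2A lies on GRCh38 at chromosome 16 from 56608199 to 56609497 (ENSG00000125148) and MT1X at 56682424 to 56684196 (ENSG00000187193), both on the plus strand. Within the 76.0 kb from the start of MT2A to the end of MT1X lie MT1E (56625475 to 56627112), MT1M (56632233 to 56633986), MT1F (56657694 to 56660698) and, on the minus strand, MT1G (56666731 to 56668065). The 2 expressed members thus stand at the ends of this stretch with those listed at or near 0 between them. BBS2, the nearest flanking gene above 1 FPKM on the MT4 side and a subunit of the BBSome of cilia, was at 3.34 ± 0.194 FPKM with CuB and 5.45 ± 0.291 FPKM with DMSO, and fell (log2 fold change -0.57, limma adjusted p = 0.0025). NUP93, a nuclear pore protein gene on the other side, was at 11.5 ± 0.188 FPKM with CuB and 8.69 ± 0.198 FPKM with DMSO, and rose (0.37, limma adjusted p = 0.00767). The direction at MT2A and MT1X was therefore that of only 1 of the 2 flanking genes.

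**Figure D2:**
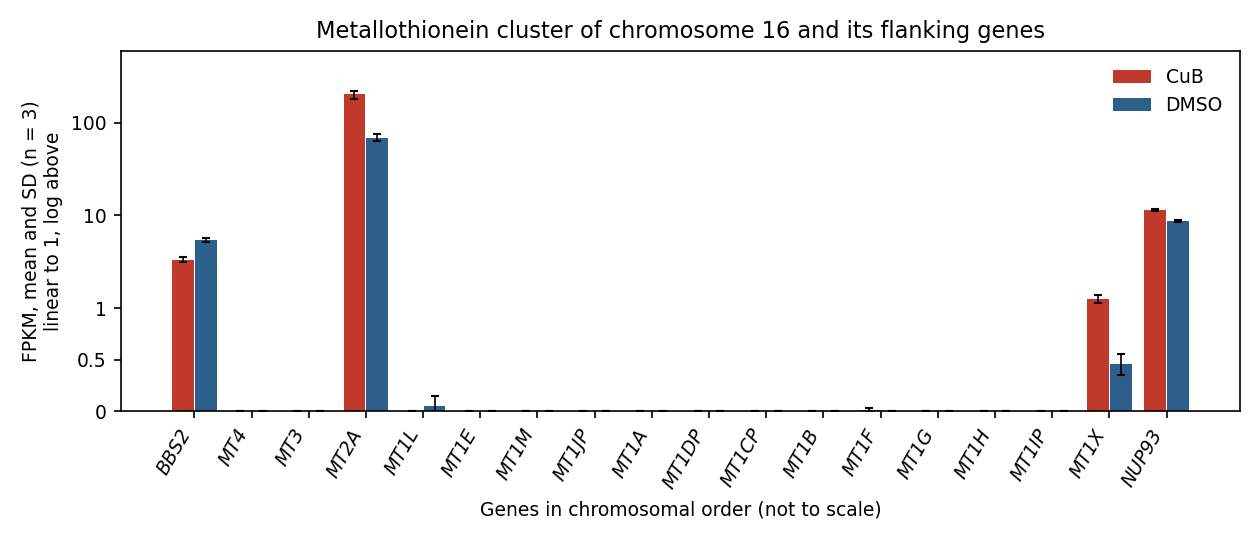
Mean FPKM with SD (n = 3; vertical axis linear to 1 and logarithmic above) with CuB and DMSO for the 16 metallothionein genes and pseudogenes of the chromosome 16 cluster, in chromosomal order, between the flanking genes BBS2 and NUP93. Only MT2A and MT1X rise clear of 0 among the metallothioneins, with 202 and 1.25 FPKM with CuB.

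Metallothionein genes resemble each other, so fragments could be split between them by the authors' counting. In GENCODE 29 transcripts, 3.02% of the 50-base stretches of MT2A occurred in another gene, against 7.10% in MT1E, 1.22% in MT1F, 16.5% in MT1G, 9.87% in MT1M and 18.3% in MT1X. At 100 bases the share was 0% for MT2A, MT1E, MT1F, MT1G and MT1M and 11.3% for MT1X. All of the MT1X stretches shared at 100 bases were shared with AC026461.1, an overlapping transcript gene on the same strand with no fragment in any library. The sources used here give neither the read length nor how shared reads were counted. No exon of MT2A, MTF1 or SLC30A1 shared a base with an exon of another gene.

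The length behind the FPKM also bears on the levels set between members. For MT2A and MT1X the table used 1299 and 1773 bases, the whole span of the gene with its introns, while the longest coding transcripts have 786 and 538. Scaled to these, MT2A came to 334 ± 34.6 FPKM with CuB and 114 ± 9.56 FPKM with DMSO, and MT1X to 4.13 ± 0.398 FPKM with CuB and 1.4998 ± 0.343 FPKM with DMSO. SLC30A1, with 5474 bases, and MTF1, with 8024 against 7972, are hardly touched. On either length the order of levels was MT2A, SLC30A1, MTF1 and MT1X in both groups, and no neighbours in that order overlapped within a group. A ratio of FPKM within a gene does not depend on its length, but a fold change on the log2(FPKM + 1) scale does, most for a low gene such as MT1X.

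The fold changes of the 3 tested members were set against each other as ratios within a library. The log2 ratio of SLC30A1 to MT2A was -2.58 ± 0.125 with CuB and -3.12 ± 0.208 with DMSO, a difference of 0.54. That of SLC30A1 to MTF1 was 1.42 ± 0.119 with CuB and 0.34 ± 0.133 with DMSO, a difference of 1.07. That of MT2A to MTF1 was 3.998 ± 0.185 with CuB and 3.47 ± 0.201 with DMSO, a difference of 0.53. In each of the 3 pairs the groups did not overlap, and the exact two-sided permutation p was 0.1 (adjusted p = 0.1 over 3 pairs), the smallest that 3 against 3 can give.

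Genes of the other carriers and handlers of zinc and copper changed in both directions. Of 31 genes, 21 were tested, 4 rose and 4 fell, against 22.9% and 15.6% of all tested genes. Their median log2 fold change was -0.12, where that of all tested genes was 0.05. The log2 fold changes of the 4 that rose were below those of SLC30A1 and MT2A, and 1 of them, SLC39A14, was above that of MTF1.

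Many zinc exporters of the SLC30 family other than SLC30A1, though not all, move zinc into vesicles, the Golgi or other compartments. Of the 9 genes listed, 5 were tested, 1 rose and 1 fell. SLC30A7, a Golgi transporter, rose to 19.2, 17.1 and 14.9 FPKM in the CuB libraries, against 11.2, 8.74 and 11.1 FPKM in the DMSO libraries (log2 fold change 0.67, SE 0.13, limma adjusted p = 0.00712). SLC30A5, its relative of the early secretory pathway, was at 15.6 ± 2.01 FPKM with CuB and 18.8 ± 1.79 FPKM with DMSO (limma adjusted p = 0.123). SLC30A5 passed as lower in 7 of 22 other settings, among them TPM rescaling (limma adjusted p = 0.044) and the GC correction (0.00144). SLC30A9, named for its place in the rule by mean level, was at 13.7 ± 1.76 FPKM with CuB and 18.3 ± 2.20 FPKM with DMSO, and fell (-0.39, limma adjusted p = 0.0476). That call was lost without CuB replicate 2 or 3 or DMSO replicate 1 or 3 (limma adjusted p = 0.131, 0.139, 0.148 and 0.134), without the filter on low values (0.101), without the intensity trend (0.0549) and with robust estimates (0.0504). SLC30A1 was thus the only SLC30 gene tested with a change of over 2-fold.

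Zinc importers of the SLC39 family bring zinc into the cytosol. Of 14, 10 were tested, 2 rose and 2 fell. SLC39A10, a plasma membrane importer that MTF1 represses in mouse cells, fell to 5.12, 4.55 and 4.04 FPKM in the CuB libraries, against 12.2, 10.6 and 12.7 FPKM in the DMSO libraries (log2 fold change -1.21, SE 0.11, limma adjusted p = 0.000299). It had the largest fall among the 21 tested zinc and copper genes. SLC39A14, which carries zinc, iron and manganese, rose to 38.1, 35.4 and 33.3 FPKM in the CuB libraries, against 15.5, 16.3 and 16.2 FPKM in the DMSO libraries (1.10, SE 0.0805, limma adjusted p = 0.000114). SLC39A11 rose to 6.29 ± 0.325 FPKM with CuB, against 3.33 ± 0.188 FPKM with DMSO (0.75, limma adjusted p = 0.000751).

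SLC39A4, the importer mutated in acrodermatitis enteropathica, was named after its values were seen. It was at 0.727 ± 0.145 FPKM with CuB and 1.30 ± 0.181 FPKM with DMSO, and fell (-0.41, limma adjusted p = 0.0444). It entered the test only through its DMSO level, and the call was lost when any 1 library was left out (limma adjusted p from 0.0619 to 0.144), with a pseudocount of 0.1 (0.0609), under quantile normalization (0.119) and without the filter on low values (0.1001). Its log2 fold change was -0.76 with that pseudocount and -0.91 with limma-voom.

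Among 8 genes of copper handling, 6 were tested, 1 rose and 1 fell. SLC31A1, the plasma membrane copper importer CTR1, rose to 22.7, 20.2 and 17.8 FPKM in the CuB libraries, against 11.9, 9.18 and 11.0 FPKM in the DMSO libraries (log2 fold change 0.86, SE 0.125, limma adjusted p = 0.00218). ATP7A, a copper-exporting ATPase named after its values were seen, was at 1.54 ± 0.247 FPKM with CuB and 2.73 ± 0.445 FPKM with DMSO, and fell (-0.55, limma adjusted p = 0.0162). Its call was lost without CuB replicate 2 or 3 or DMSO replicate 1 (adjusted p = 0.0611, 0.0545 and 0.0642), and its log2 fold change was -0.89 with limma-voom. SOD1, the copper and zinc superoxide dismutase, was at 47.9 ± 3.06 FPKM with CuB and 54.5 ± 0.881 FPKM with DMSO (limma adjusted p = 0.0966). SOD1 passed as lower in 5 of 22 other settings. ATP7B, also named after its values were seen, lay below the filter at 0.554 ± 0.0591 FPKM with CuB and 1.29 ± 0.0618 FPKM with DMSO. With no filter on low values it fell (log2 fold change -0.56, SE 0.109, limma adjusted p = 0.0237), where 2007 of 32824 genes fell.

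The count of falls in these lists moved with the scaling and with single libraries, while 4 genes rose in every setting except a minimum of 5 FPKM, which gave 3. SLC39A10 fell in all 22 other settings, and SLC30A9, SLC39A4 and ATP7A lost their calls only in some. TPM rescaling gave 4 rises and 9 falls, equal totals of fragments gave the same counts, and quantile normalization gave 4 and 7. Without CuB replicate 2, CuB replicate 3 or DMSO replicate 1 only 1 fell, SLC39A10, and without DMSO replicate 3 there were 2. Over all tested genes 59.5% of the calls were higher with CuB as deposited, 46.7% with TPM, 47.2% under quantile normalization and 39.3% when libraries had equal totals of fragments.

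**Figure D3:**
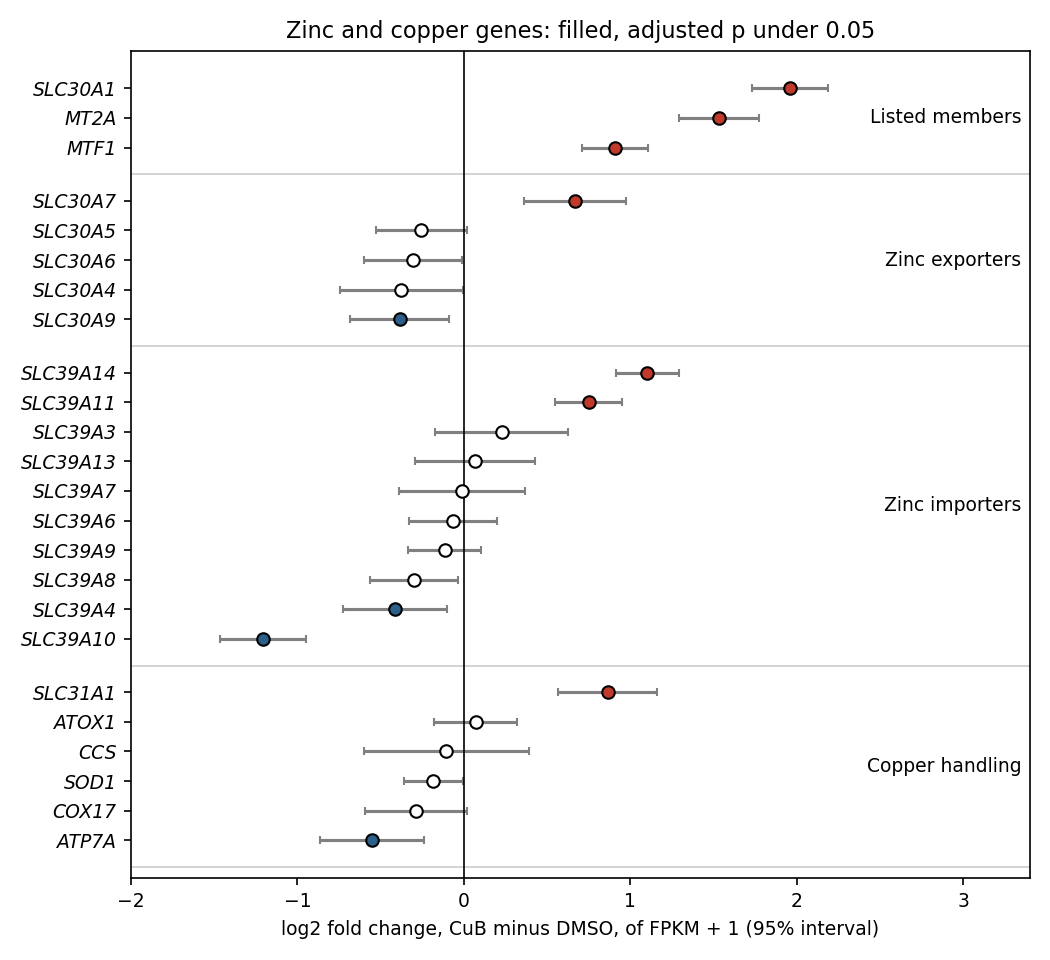
log2 fold change, CuB minus DMSO, of FPKM + 1 with its 95% interval (horizontal axis) for the 3 tested members and the 21 tested zinc and copper genes, grouped by family. Filled points passed at an adjusted p under 0.05; SLC30A1 (1.96) and MT2A (1.53) lie furthest right and SLC39A10 (-1.21) furthest left.

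The rises of MT2A, SLC30A1 and MTF1 did not depend on 1 library or on the scaling. All 3 passed in each of 22 other settings. The log2 fold change ranged from 1.30 to 1.61 for MT2A, from 1.80 to 2.07 for SLC30A1 and from 0.76 to 1.00 for MTF1, and the largest adjusted p was 0.000917, 0.000401 and 0.00372 in that order. Without DMSO replicate 2, which stood apart from the other DMSO libraries, the values were 1.599, 1.92 and 0.87. Without CuB replicate 1 they were 1.46, 1.89 and 0.90.

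**Figure D4:**
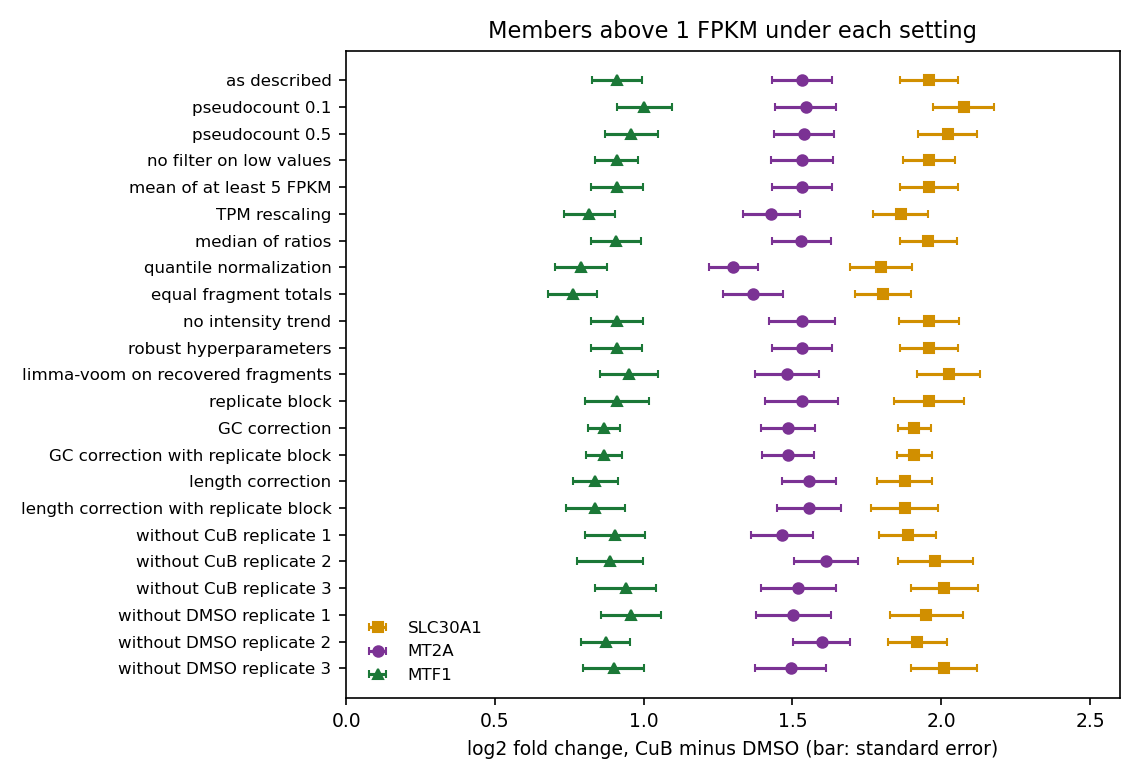
log2 fold change, CuB minus DMSO, with its standard error (horizontal axis) of SLC30A1, MT2A and MTF1 under the described fit (top row) and 22 other settings. The points of each gene form a narrow band, from 1.80 to 2.07 for SLC30A1, 1.30 to 1.61 for MT2A and 0.76 to 1.00 for MTF1.

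The genes whose pattern over the 6 libraries was nearest to that of each tested member were found by Pearson correlation of log2(FPKM + 1). They were sought among 10862 protein-coding genes, and r does not measure the size of a change. These values describe 6 points that fall into the 2 groups, and 10.8% of the genes had an r above 0.95 with MT2A, 12.4% with MTF1 and 12.7% with SLC30A1. For MT2A the 5 nearest were TGIF1 (r = 0.999), SFPQ, ZNFX1, JOSD1 and VHL (r = 0.997). For MTF1 they were REL, RNF34, BFAR, ERN1 and NEDD4L, all with r = 0.999. For SLC30A1 they were MSANTD3, C3orf52, ZNF267, CD69 and HERPUD1, the first 3 with r = 1.00 to this rounding and the others with r = 0.999. C3orf52 and CD69 reached the filter only through their CuB levels (DMSO means 0.871 and 0.0527 FPKM). The log2 fold changes of the nearest genes ran from 0.24 to 0.94 for MT2A, 0.48 to 1.69 for MTF1 and 1.38 to 2.47 for SLC30A1. Those of the members themselves were 1.53, 0.91 and 1.96.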

How the data were processed

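The authors deposited FPKM for 58735 genes in 6 libraries of polyadenylated RNA on GRCh38, a build named in the submitters' processing notes. Aligner, counting and scaling: not given in the sources used here. Per the labels' protocols, the library kit was TruSeq RNA, which does not mark strand. All 58735 genes had the start, end and strand of GENCODE 29. The table's gene length, an input of FPKM, was used to convert values back to fragments, and 100% of them lay within 0.01 of a whole number. The library size implied by FPKM was 0.914 to 0.927 times the fragment total with CuB and 1.03 to 1.04 times with DMSO. No column of sample values was left unused.

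Values were tested as log2(FPKM + 1) with limma 3.58.1 in R 4.3.3, with an intensity trend and no replicate block, for the 13273 genes whose mean over the libraries reached 1 FPKM; p-values were adjusted by Benjamini-Hochberg over all of them, at 0.05. The limma step was tested on simulated data. Single ratios were compared by exact permutation. Fragment ratios have exact 95% binomial intervals, for counting error only. GC content and k-mers came from GENCODE 29 transcripts. Lowess curves had a span of 0.3. Plots used matplotlib 3.10.9.

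Named genes were all 8 members and, per list, up to 4 that passed with at least 1.5-fold, or the 2 with the highest mean where fewer than 2 did, plus the 5 nearest patterns; others are said to be chosen after their values were seen. The members and lists were chosen with earlier results of these data known. Other settings were a pseudocount of 0.1 or 0.5, no low-value filter, a 5 FPKM minimum, TPM, median of ratios, quantile normalization, equal fragment totals, limma without trend or robust, limma-voom on recovered fragments, the replicate block, GC and length corrections with and without the block, and each library left out.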

Additional observations from a re-analysis of the deposited data

How the results depend on the processing

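The counts of members, 3 higher and 0 lower, were the same in all settings, except that 4 were higher without the filter on low values, MT1X being the fourth. Values under other settings numbered 443, for 20 of the named genes and for MT1X. Of these, 406 counted as the same, 25 lost the call, 12 gained it and 0 reversed. Those of the 20 genes were judged by their side of the threshold. The 7 of MT1X, all among the 406, are fragment ratios without an adjusted p. Over all genes, 985 were lower (2072 in the described fit) with a minimum of 5 FPKM, 3128 with equal fragment totals, 3592 with the GC correction and 3404 with that correction and the replicate block, and 2022 were higher (3046 in the described fit) with equal fragment totals. Of the other zinc and copper genes, 4 lower in the described fit, 2 were lower with a minimum of 5 FPKM, 9 with TPM rescaling, 7 with quantile normalization, 9 with equal fragment totals, 8 with limma-voom, 10 with the GC correction with or without the block and 7 with the length correction. Fewer genes were tested at 5 FPKM; for the other settings the cause was not tested. Leaving out 1 library gave 1965 to 3443 genes higher, 1297 to 2312 lower, and 1 to 6 zinc and copper genes lower.

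Libraries share only a replicate number: the deviations of same-numbered libraries correlated at 0.269, 0.119 and -0.357, and CuB replicates 1 and 3 correlated best with another number. The replicate block gave 2647 genes higher and 1796 lower, 3 members higher, and 2 zinc and copper genes lower. With the block the calls of SLC30A9 (limma adjusted p = 0.0619) and SLC39A4 (0.0986; 0.0616 with the length correction) were lost. Depth limits MT1X, with 38 DMSO fragments, and the metallothioneins at or near 0.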

Other observations

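Of 11 genes known to be raised by cadmium or other metals, 10 were tested, 8 rose and 0 fell (22.9% of all tested genes rose), with a median log2 fold change of 0.98 against 0.05 for all tested genes. The list was chosen with earlier results of these data known, so this count describes it and is not independent evidence. HMOX1, heme oxygenase, rose by 2.22 on the log2 scale, SLC7A11, the cystine transporter, by 1.65, and GCLM, the modifier subunit of glutathione synthesis, by 1.14, to 15.7 ± 2.32 FPKM with CuB, against 6.55 ± 1.11 FPKM with DMSO (limma adjusted p = 0.00128). GCLC, the catalytic subunit of the same enzyme, was at 7.56 ± 0.457 FPKM with CuB and 6.85 ± 0.868 FPKM with DMSO, and BAG3, a co-chaperone, at 54.0 ± 4.24 and 51.1 ± 7.74 FPKM. These 2 were the tested genes that did not pass. The calls of HMOX1, SLC7A11, GCLM, TXNRD1 and DNAJB1 held in all 22 other settings. That of SRXN1, whose groups overlapped, was near the threshold (limma adjusted p = 0.0486) and held in 13 of 21. That of HSPA1B held in 17 of 21. HSPA1A, an HSP70 gene near-identical to HSPA1B, rose by 1.09 on the log2 scale. Its fold change stayed near that without CuB replicate 2 (1.02, limma adjusted p = 0.056), DMSO replicate 1 (0.99, 0.0542) or the filter on low values (1.09, 0.0503), but the call was lost. HSPA6, an HSP70 gene typically switched on by cadmium, had 3, 3 and 4 fragments in the CuB libraries, against 13, 25 and 14 in the DMSO libraries. All CuB values of HSPA6 lay below all DMSO values, as in 21.7% of tested genes, though HSPA6 itself was too low to be tested. With no filter on low values it fell (log2 fold change -0.41, SE 0.091, limma adjusted p = 0.0353), where 2007 of 32824 genes fell. Why HSPA6 and HMOX1 went different ways was not tested.

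Of 7 glucocorticoid receptor targets, 6 were tested, 3 rose and 0 fell, where 22.9% of all tested genes rose and 15.6% fell. This list too was chosen with earlier results of these data known, so the count is a description only. TSC22D3, the glucocorticoid-induced leucine zipper, rose to 5.53 ± 0.417 FPKM with CuB, against 0.680 ± 0.127 FPKM with DMSO (log2 fold change 1.96, limma adjusted p = 3.31e-05). It entered the test only through its CuB level. DUSP1, a MAP kinase phosphatase, rose by 3.05 and PER1, a clock repressor, by 1.75. FKBP5, a co-chaperone of steroid receptors, was at 4.10 ± 0.219 FPKM with CuB and 3.80 ± 0.191 FPKM with DMSO, SGK1 at 8.79 ± 0.727 and 10.1 ± 0.614 FPKM and KLF9 at 55.0 ± 2.64 and 50.8 ± 1.41 FPKM. None of these 3 passed (limma adjusted p = 0.451, 0.157 and 0.258). GCLC, BAG3, HSPA6, TXNRD1, DNAJB1, SRXN1, HSPA1B, FKBP5, SGK1 and KLF9 were named after their values were seen.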
